A study of Mus musculus with 20 samples.

Results

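Interferon-stimulated genes are the genes that a cell switches on when it senses interferon, and 43 of them were followed here across type 1 conventional dendritic cells (cDC1s) of mice. They were chosen by symbol from a list of 43 names, with earlier results of these data known. All 43 were present in each of the 3 count tables, out of 56221 genes named in at least 1 of them. In each of the tables all 43 passed the filter on low counts, and no library had a count of 0 for any of them.

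Type I interferons bind the receptor formed by IFNAR1 and IFNAR2, whose kinases JAK1 and TYK2 phosphorylate STAT2. With IRF9 it works in a complex that binds the interferon-stimulated response element (ISRE) of antiviral genes, while interferon gamma acts on genes with the gamma-activated site (GAS), and IRF1 and IRF7 are further factors of the response. In dendritic cells this programme is known for antiviral defence and for tuning cross-presentation, the display of captured antigen to CD8 T cells for which cDC1s are known.

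RNA was sequenced from sorted cDC1s in 20 libraries of 8 groups. In the first table, XCR1+CD8a+ cDC1s came from C57BL/6 wild-type mice on day 15 of TLI/ATS, which is total lymphoid irradiation with anti-thymocyte serum, or from untreated mice (n = 2 each). The second held EpoR+ and EpoR- fractions of XCR1+CD8a+ cDC1s from EpoR-tdTomato reporter mice, both on day 15 of TLI/ATS (n = 2 each), so no untreated fraction entered that comparison. The third held CCR7+XCR1+SIRPa- cDC1s of spleen and migratory XCR1+SIRPa- cDC1s of peripheral lymph node, from Epor-Xcr1-Cre cKO mice and from Epor flox/flox controls (n = 3 in each of 4 groups), and none of these mice is labelled as treated. Xcr1-Cre deletes only in cells that express or have expressed Xcr1. The controls are not labelled as carrying Cre, so effects of Cre and of the deletion cannot be told apart. Ages are not given in the labels, nor whether replicates were separate animals, so p-values measure the spread between these libraries, which may be technical.

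A library held 40.58 to 77.57 M counts in the TLI/ATS table, 33.66 to 40.13 M counts in the EpoR table and 26.62 to 49.7 M counts in the cKO table. Epor had 236 and 127 counts after TLI/ATS, against 0 and 0 in untreated cells, and 525 and 657 in EpoR+ cells, against 4 and 11 in EpoR- cells. It had 0, 0 and 0 counts in lymph node cKO cells, against 24, 28 and 4 in lymph node controls, and 0, 2 and 0 in spleen cKO cells, against 1, 0 and 6 in spleen controls. Loss of Epor was therefore not detectable in spleen at this depth. None of 10 cDC1 markers was at 0 in any library. Levels are given as CPM (counts per M counts of the library, with the library total scaled by edgeR's TMM factors), within each table only, since the tables were counted separately. Differences are log2 fold changes ± SE from edgeR's quasi-likelihood test, and a member was called where the Benjamini-Hochberg adjusted p over all genes tested was under 0.05. Libraries of a called member that stand apart between groups largely restate the call, and the share of all genes standing apart was not computed.

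The stretches just before the start site show what several members share. Of the 43 members, 34 had a promoter window in RefSeq (build GRCm38.p6), which reaches from 250 bases before to 50 bases after each annotated start. The ISRE was searched as GAAANNGAAA and the GAS as TTCNNNGAA, on both strands and with overlapping matches allowed within and between the motifs. An ISRE match lay in a window of 20 of the 34 members (58.8%), against 3.99% of 27025 genes in the whole table, and a GAS match in a window of 10 (29.4%), against 9.55%. Among members higher in EpoR+ cells, described below, 15 of 20 with a window held the ISRE letters, and among the other members 5 of 14 did. The members without a window were Ifi27, Parp14 and Rtp4 among the higher ones, and Dhx58, Mx1, Mx2, Oas2, Usp18 and Zbp1 among the others. The difference between these counts was not tested. The 160 bases before the start are printed for Isg15, which was called in several comparisons, for 5 members with large differences between EpoR+ and EpoR- cells, and for Trim25, called in lymph node cKO cells without an ISRE match. The 5 are examples that all hold a match there, and are not the largest differences. Of members with larger differences than Ifit1, Rtp4 and Ifi27 had no window. The match of Ddx58 lay after the start, and Gbp2, with a match, is not printed. Each runs 5′ to 3′ in the gene's direction with ISRE matches in capitals. Their positions are chr4:156200819-156200978 (minus strand) for Isg15, chr19:34583369-34583528 (plus) for Ifit3, chr19:34640729-34640888 (plus) for Ifit1, chr12:26456453-26456612 (minus) for Rsad2, chr5:120907526-120907685 (minus) for Oas1a, chr3:142559884-142560043 (plus) for Gbp3 and chr11:88999243-88999402 (plus) for Trim25.
Isg15: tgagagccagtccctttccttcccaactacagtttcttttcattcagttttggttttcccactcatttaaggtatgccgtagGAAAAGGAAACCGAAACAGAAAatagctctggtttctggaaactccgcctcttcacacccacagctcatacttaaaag
Ifit3: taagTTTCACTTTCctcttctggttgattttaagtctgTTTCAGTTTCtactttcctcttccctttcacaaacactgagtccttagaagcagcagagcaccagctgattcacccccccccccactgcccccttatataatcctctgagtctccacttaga
Ifit1: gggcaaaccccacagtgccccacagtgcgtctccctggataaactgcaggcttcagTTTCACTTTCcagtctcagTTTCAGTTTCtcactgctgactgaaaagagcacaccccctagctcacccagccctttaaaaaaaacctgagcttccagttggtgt
Rsad2: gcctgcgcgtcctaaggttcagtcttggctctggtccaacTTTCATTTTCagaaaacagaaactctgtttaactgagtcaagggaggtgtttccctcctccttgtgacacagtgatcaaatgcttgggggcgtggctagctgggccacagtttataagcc
Oas1a: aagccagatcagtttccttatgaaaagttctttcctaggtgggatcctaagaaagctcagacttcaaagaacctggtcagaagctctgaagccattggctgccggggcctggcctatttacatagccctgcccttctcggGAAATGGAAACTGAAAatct
Gbp3: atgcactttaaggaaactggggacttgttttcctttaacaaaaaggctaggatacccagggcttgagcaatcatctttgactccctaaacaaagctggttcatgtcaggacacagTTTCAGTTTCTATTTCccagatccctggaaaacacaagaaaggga
Trim25: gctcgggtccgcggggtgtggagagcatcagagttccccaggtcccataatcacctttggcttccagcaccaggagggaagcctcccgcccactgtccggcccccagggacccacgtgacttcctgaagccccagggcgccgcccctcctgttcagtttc
Isg15 carried 3 overlapping matches in 1 run, Ifit3 and Ifit1 carried 2 separate matches each, and Oas1a and Gbp3 carried 2 overlapping ones. Rsad2 carried 1. A match describes letters only, and no binding was measured.

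Most of these genes were higher in EpoR+ than in EpoR- cDC1s. Of 43 members 23 were called higher (53.5%), where 11.9% of 15627 genes tested were higher, and 2 were lower (4.65%), where 4.75% of genes were lower. The median log2 fold change over the members was 0.95, against 0.02 over all genes tested. The 4 transcription factor members did not pass the threshold. Markers of another cell type moved with this comparison. All 14 macrophage markers were higher, and their summed level was 23210 and 22900 CPM in EpoR+ cells, against 320 and 299.8 CPM in EpoR- cells, while 9 of 10 cDC1 markers were lower (summed 8942 and 7474 CPM, against 17620 and 15850 CPM). No macrophage or cDC1 marker was at 0. The part of this shift in the members' differences was not tested. In sorted bulk cells, fewer cells of a type and less RNA per cell cannot be told apart.

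**Figure D1:**
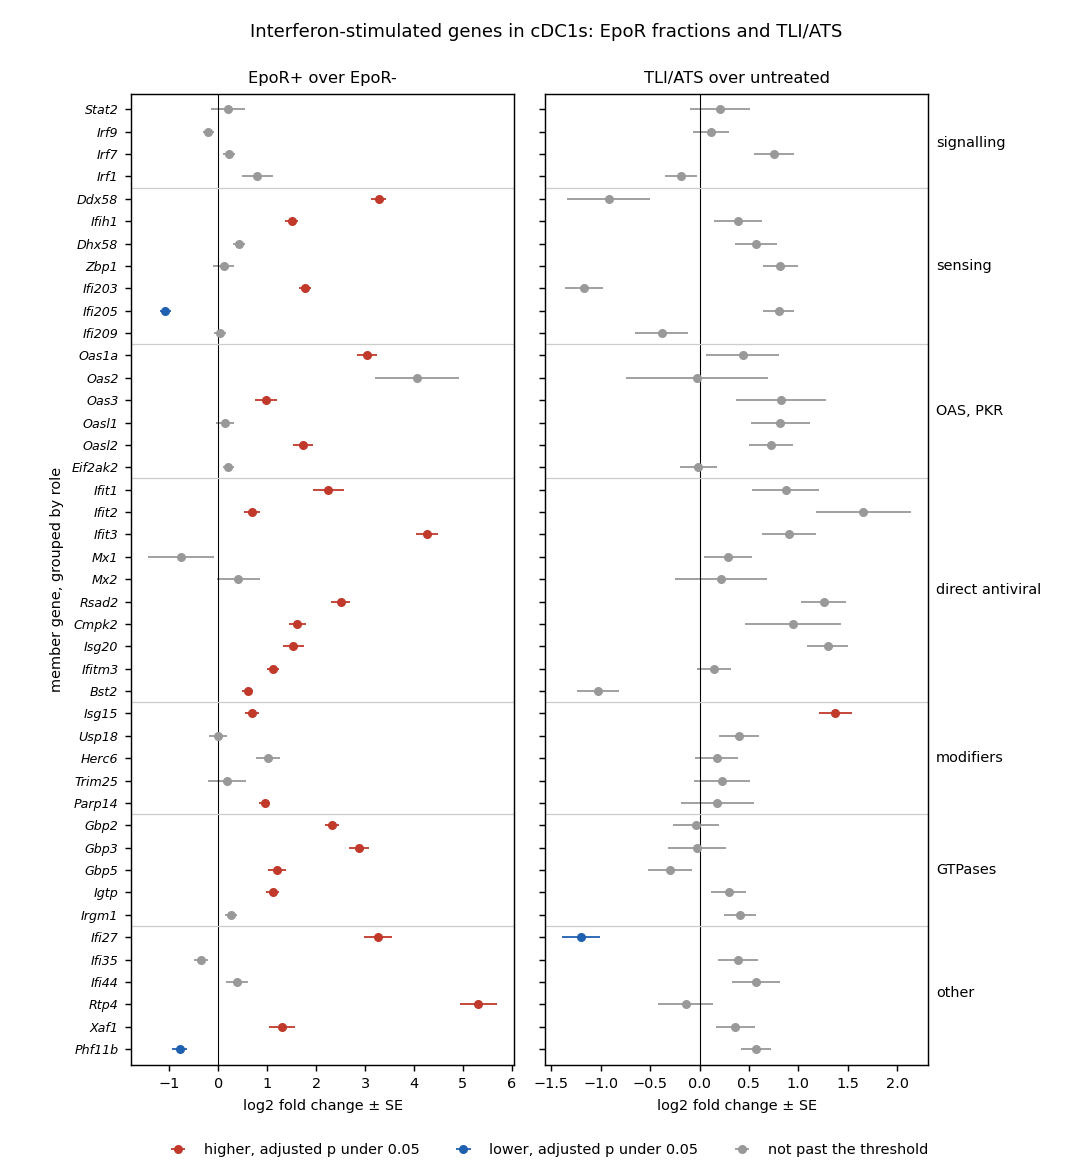
Log2 fold change ± SE of each of the 43 members (rows, grouped by role), in EpoR+ over EpoR- cells on the left and in TLI/ATS over untreated cells on the right, with the x axes scaled separately. Red and blue points passed the threshold; 23 members are red and 2 blue on the left, and 1 is red and 1 blue on the right.

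Among the factors that relay the interferon signal, Stat2 stood at 102 and 148 CPM in EpoR+ cells, against 77.8 and 140.2 CPM in EpoR- cells (log2 fold change 0.19 ± 0.36, adjusted p = 0.792). Irf9, its DNA-binding partner, stood at 109 and 101 CPM in EpoR+ cells, against 117 and 124 CPM in EpoR- cells (-0.20 ± 0.11, adjusted p = 0.283). The Stat2 libraries overlapped between the fractions. Irf9 was at a slightly lower level in both EpoR+ libraries. Irf7, the factor that drives interferon alpha genes, had 182 and 190.2 CPM in EpoR+ cells, against 145 and 175 CPM in EpoR- cells (0.22 ± 0.13, adjusted p = 0.332). Irf1, a factor induced by interferon gamma, had 123 and 185 CPM in EpoR+ cells, against 68.6 and 108 CPM in EpoR- cells (0.80 ± 0.31, adjusted p = 0.182). In both genes the EpoR+ libraries lay above the EpoR- libraries, and neither passed the threshold, although Irf1 did without EpoR- replicate 2 (1.16). A fit with 1 library left out leaves 1 fraction with a lone library, which is assumed to vary like the pair of the other fraction, so a call gained there does not add to the evidence.

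Of the 7 nucleic acid sensors 3 were higher and 1 was lower. Ddx58, which encodes RIG-I, a sensor of viral RNA ends, stood at 47.1 and 46.6 CPM in EpoR+ cells, against 4.71 and 4.97 CPM in EpoR- cells (3.28 ± 0.15, adjusted p = 0.00019). Ifi203, a PYHIN family member, stood at 69.2 and 73.1 CPM in EpoR+ cells, against 21.1 and 20.9 CPM in EpoR- cells (1.76 ± 0.12, adjusted p = 0.000641). Replicates lay close together in both genes and the fractions were far apart. Ifih1, which encodes the long double-stranded RNA sensor MDA5, was also higher (1.50 ± 0.13). Ifi205, another PYHIN gene, went the other way, at 250.3 and 214 CPM in EpoR+ cells, against 499 and 484 CPM in EpoR- cells (-1.08 ± 0.12, adjusted p = 0.00318). Dhx58 (LGP2), Zbp1 and Ifi209 lay between 0.03 and 0.42 and were not called. Related PYHIN genes therefore differed in opposite directions between the same libraries.

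The OAS enzymes make oligoadenylates that activate RNase L, and PKR (Eif2ak2) halts translation on double-stranded RNA. Of these 6 members 3 were higher. Oas1a stood at 39.3 and 37.1 CPM in EpoR+ cells, against 4 and 5.35 CPM in EpoR- cells (3.03 ± 0.21, adjusted p = 0.000657). Oasl2, an OAS-like gene, stood at 19.4 and 20 CPM in EpoR+ cells, against 5.19 and 6.69 CPM in EpoR- cells (1.73 ± 0.21, adjusted p = 0.00501). Both EpoR+ libraries were above both EpoR- libraries in each case. Oas3 was called at 0.97 ± 0.23. Oas2, named after its values were seen, had one of the largest differences without a call, with 14.1 and 41.3 CPM in EpoR+ cells, against 0.856 and 2.5 CPM in EpoR- cells (4.06 ± 0.86, adjusted p = 0.0551). Its libraries within each fraction differed by 2.92-fold, and without EpoR+ replicate 1 it was called (4.62), in a fit where the EpoR- pair alone gives the spread. Oasl1 and Eif2ak2 were at 0.14 ± 0.18 and 0.21 ± 0.12 and were not called.

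Of the 10 direct antiviral effectors 8 were called, all higher. Ifit3, of the RNA-binding IFIT family, stood at 48.6 and 37.8 CPM in EpoR+ cells, against 2.04 and 2.47 CPM in EpoR- cells (4.26 ± 0.23, adjusted p = 0.000281). Ifit1, which binds uncapped or incompletely capped RNA, had 11.8 and 8.21 CPM in EpoR+ cells, against 2.02 and 2.2 CPM in EpoR- cells (2.25 ± 0.31, adjusted p = 0.00732). The IFIT genes differed unevenly, since Ifit2 was called at only 0.69 ± 0.16. Rsad2, the radical SAM enzyme viperin, stood at 57.3 and 53.8 CPM in EpoR+ cells, against 8.41 and 11.3 CPM in EpoR- cells (2.50 ± 0.19, adjusted p = 0.000994). Its neighbour Cmpk2, a mitochondrial nucleotide kinase, stood at 32.8 and 28.7 CPM in EpoR+ cells, against 10.4 and 9.66 CPM in EpoR- cells (1.61 ± 0.17, adjusted p = 0.00282). All EpoR+ libraries of these genes were above all EpoR- libraries. The exonuclease gene Isg20 (1.53), the fusion inhibitor gene Ifitm3 (1.12) and the tetherin gene Bst2 (0.60) were higher as well. The dynamin-like GTPase genes Mx1 and Mx2 were not called. Mx1 had 39.3 and 86.3 CPM in EpoR+ cells, against 59.2 and 153 CPM in EpoR- cells, so its fractions overlapped.

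**Figure D2:**
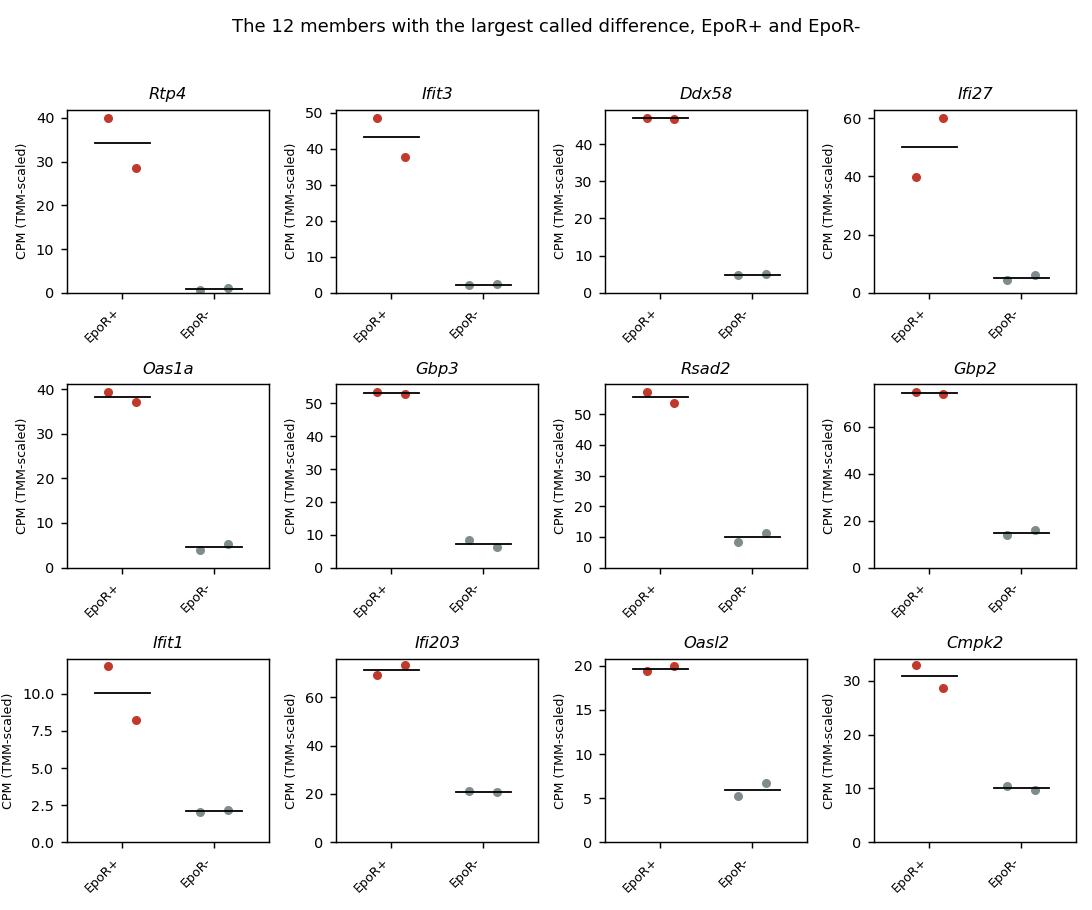
CPM of the 12 members with the largest called difference in each EpoR+ (left, red) and EpoR- (right, grey) library, with the mean as a line and the y axis of each panel starting at 0. In every panel both EpoR+ libraries lie above both EpoR- libraries, which picking members by this difference favours. The largest log2 fold changes are those of Rtp4 (5.31) and Ifit3 (4.26).

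Isg15, a ubiquitin-like protein that is attached to other proteins after interferon, stood at 33.4 and 32.7 CPM in EpoR+ cells, against 19.3 and 21.8 CPM in EpoR- cells (0.69 ± 0.15, adjusted p = 0.033). The ADP-ribosyltransferase gene Parp14 was also higher (0.95 ± 0.12). The remaining modifiers were not called: Herc6, the ISG15 ligase of mice, at 1.01 ± 0.25 (adjusted p = 0.0503, called without EpoR- replicate 2 at 1.25), Trim25, a ubiquitin ligase acting on RIG-I, at 0.17 ± 0.39, and Usp18, which removes ISG15 and dampens receptor signalling, at -0.01 ± 0.18. The Usp18 and Trim25 libraries overlapped between the fractions.

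Of the 5 interferon-inducible GTPases 4 were higher. Gbp3, a guanylate-binding protein gene, stood at 53.4 and 52.9 CPM in EpoR+ cells, against 8.31 and 6.18 CPM in EpoR- cells (2.87 ± 0.20, adjusted p = 0.000622). Gbp2 had 75.1 and 74.1 CPM in EpoR+ cells, against 13.9 and 15.9 CPM in EpoR- cells (2.32 ± 0.14, adjusted p = 0.000385). Gbp5 and the immunity-related GTPase gene Igtp were called at 1.19 ± 0.19 and 1.11 ± 0.14, and Irgm1 was at 0.26 ± 0.12 with no call. Every member of this family was thus above 0, and the spread among them was wide.

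Of the 6 members with other roles 3 were higher and 1 lower. Rtp4, a chaperone of receptors that also restricts viruses, had the largest difference of all members, with 39.9 and 28.6 CPM in EpoR+ cells, against 0.604 and 1.13 CPM in EpoR- cells (5.31 ± 0.38, adjusted p = 0.000817). Ifi27, a mitochondrial protein gene, stood at 39.8 and 60.1 CPM in EpoR+ cells, against 4.43 and 5.98 CPM in EpoR- cells (3.26 ± 0.28, adjusted p = 0.00168). The apoptosis gene Xaf1 was called at 1.29 ± 0.27. Phf11b, a PHD finger gene, was lower, at 105 and 81.5 CPM in EpoR+ cells, against 166 and 157 CPM in EpoR- cells (-0.79 ± 0.15, adjusted p = 0.0218). Ifi35 and Ifi44 were not called (-0.36 and 0.38). Ifi205 and Phf11b, the 2 members that were lower, ranked among the 5 most abundant members per length in both fractions, and they are described because the count of lower members is small, chosen after their values were seen. Rtp4 shares 13.9% of its exon bases with a predicted gene on its strand, and Ifit3 and Oas1a have close paralogs, so reads may be split there.

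Of 100 tested genes among 122 further interferon genes, 26 were higher and 12 lower in EpoR+ cells, where 11.9% and 4.75% of all genes tested were. The receptor gene Ifnar2 was higher (106 ± 9.61 CPM in EpoR+ cells, against 45.9 ± 4.75 CPM in EpoR- cells, mean ± SD, 1.21 ± 0.13), Ifngr1 was lower (-0.58 ± 0.09), and Ifnar1 and Ifngr2 were at -0.10 ± 0.15 and 0.05 ± 0.14. Irf3 was at 0.13 ± 0.20. The largest called differences were those of the RNA sensor gene Tlr7 (162 ± 5.69 CPM in EpoR+ cells, against 2.51 ± 0.0242 CPM in EpoR- cells, 6.01 ± 0.13), Ifit3b (4.78), Oas1g (4.50), Gbp8 (4.22), Gbp6 (3.95), Ifi206 (3.78), Gbp7 (3.67) and Ifi27l2a (3.19). Interferon genes themselves were scarcely read. Ifng had 11 and 44 counts in EpoR+ cells, against 1 and 0 in EpoR- cells, and no type I interferon gene exceeded 12 counts in any library of this table.

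There were 6 members over 1.5-fold higher in EpoR+ replicate 2 than in replicate 1, and 8 in EpoR- replicate 2, with no member that far the other way in either fraction. The share of all genes that far apart between replicates was not computed. Irf1, Mx1, Mx2, Oas2, Trim25 and Ifi27 were the ones in EpoR+ cells, named after their values were seen. In Trim25, the libraries held 113 and 202 CPM in EpoR+ cells, against 106 and 173 CPM in EpoR- cells. The labels do not pair the replicate numbers of the fractions. Of the 23 higher members 17 were called under each of 8 alternatives, namely Ddx58, Ifih1, Ifi203, Oas1a, Oasl2, Ifit3, Rsad2, Cmpk2, Isg20, Ifitm3, Parp14, Gbp2, Gbp3, Gbp5, Igtp, Ifi27 and Rtp4, and Ifi205 was among the lower ones. The calls that ended without EpoR+ replicate 1 were those of Bst2 (0.56), Ifit1 (1.95), Ifit2 (0.52), Isg15 (0.66), Oas3 (1.12) and Xaf1 (1.31). Those that ended without EpoR+ replicate 2 were Bst2 (0.64), Ifit2 (0.84), Isg15 (0.71), Oas3 (0.80), Xaf1 (1.27) and Phf11b (-0.61). Without EpoR- replicate 1 the calls of Ifit2 (0.67), Isg15 (0.60) and Oas3 (0.84) ended, and without EpoR- replicate 2 those of Bst2 (0.53) and Ifit2 (0.70).

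TLI/ATS itself was followed by calls of 2 members, where 2.7% of all genes tested were called. Isg15 was higher and Ifi27 was lower, 1 of 43 members in each direction (2.33% each), where 0.499% of 17236 genes tested were higher and 2.2% were lower. The median over the members was 0.36, against 0.02 over all genes, and 31 of 43 lay above 0, where 52.4% of all genes tested did. At an unadjusted p under 0.05 in the edgeR test there were 16 members, a count for which no share over all genes was computed. Isg15 stood at 63.7 and 69.3 CPM after TLI/ATS, against 25.6 and 25.7 CPM in untreated cells (1.38 ± 0.17, adjusted p = 0.0257). Ifi27 stood at 12.8 and 13.1 CPM after TLI/ATS, against 28.8 and 30.6 CPM in untreated cells (-1.20 ± 0.19, adjusted p = 0.0482). The groups did not overlap in either gene. Without untreated replicate 1 neither was called (1.37 for Isg15 and -1.25 for Ifi27), nor without untreated replicate 2 (1.38 and -1.15). The median over the members was 0.13 without TLI/ATS replicate 1 and 0.56 without replicate 2. Those fits leave a lone TLI/ATS library and take the spread from the untreated pair, so their counts of calls are not given. DESeq2 called 10 members. Over all genes it tested, DESeq2 called 7.02% after TLI/ATS. Of the members, 11 were over 1.5-fold higher in TLI/ATS replicate 1 than in replicate 2, and 0 were that far the other way. No share over all genes was computed for this count.

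Stat2 had 80.1 and 45.2 CPM after TLI/ATS, against 54.3 and 54.1 CPM in untreated cells (0.21 ± 0.30, adjusted p = 0.837). Irf9 had 139 and 113 CPM after TLI/ATS, against 119.8 and 113 CPM in untreated cells (0.12 ± 0.18, adjusted p = 0.85). The groups overlapped in both genes. Irf7 had 215 and 168 CPM after TLI/ATS, against 122 and 104 CPM in untreated cells (0.76 ± 0.20, adjusted p = 0.157). Irf1 had 85.2 and 77.1 CPM after TLI/ATS, against 89.8 and 94.8 CPM in untreated cells (-0.19 ± 0.16, adjusted p = 0.685). Irf7 was above and Irf1 below the untreated libraries without passing the threshold. By role, the direct antiviral members had a median of 0.89 with 9 of 10 above 0, the OAS and PKR group 0.58, the sensors 0.39 and the GTPases -0.02. Isg20 (1.30 ± 0.21, adjusted p = 0.0503) and Ifi203 (-1.17 ± 0.19, adjusted p = 0.0547), named after their values were seen, lay just outside the threshold. Ifit2 had the largest value above 0 (1.66), with 56.8 and 21.7 CPM after TLI/ATS, against 11.94 and 12.95 CPM in untreated cells. Bst2 (-1.03) had 105.4 and 146.3 CPM after TLI/ATS, against 255.6 and 257.7 CPM in untreated cells. Neither was called, and both are named after their values were seen.

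Markers of other cell types shifted in this comparison too, although the cells were sorted as XCR1+CD8a+. Summed pDC markers, those of plasmacytoid dendritic cells, which hold much Irf7 and Bst2, were at 148.1 and 128 CPM after TLI/ATS, against 936.2 and 937.9 CPM in untreated cells (9 of 10 lower). Macrophage markers were at 1700 and 1215 CPM, against 208.3 and 226.7 CPM (10 of 14 higher), T cell markers at 14.9 and 11.98 CPM, against 509.5 and 511.1 CPM (10 of 10 lower), and B cell markers at 48.6 and 43.5 CPM, against 561.4 and 577.6 CPM (8 of 8 lower). No marker of these 4 lists was at 0. Monocyte and neutrophil markers summed to 72.5 and 75.5 CPM after TLI/ATS, against 266.5 and 265.9 CPM in untreated cells (3 of 8 higher and 2 lower), with Csf3r or Retnlg at 0 in untreated libraries. Their part in the members' differences was not tested. Of 102 tested further interferon genes 0 were higher and 4 lower after TLI/ATS, where 2.2% of all genes tested were lower: the kinase gene Ikbke (-5.36), Ifng (-4.90; 8 and 7 counts after TLI/ATS, against 152 and 144 in untreated cells), Ifi206 (-2.63) and Ifi27l2a (-1.33). The receptor genes Ifnar1 (-0.15), Ifnar2 (-0.17), Ifngr1 (0.27) and Ifngr2 (0.09) were not called, nor was Irf3 (0.03 ± 0.19). The first 2 tables share no library, so their calls can be read side by side. Isg15 was called higher in both, and Ifi27 was called lower after TLI/ATS and higher in EpoR+ cells.

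**Figure D3:**
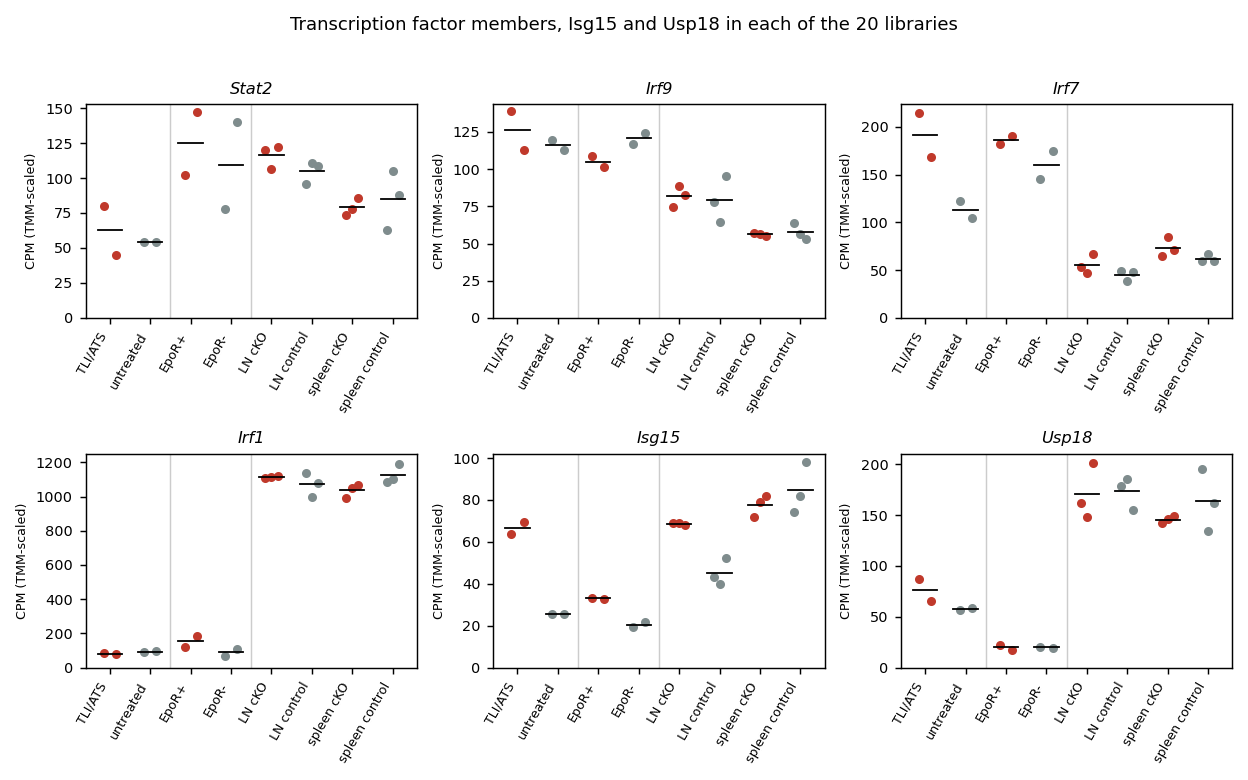
CPM of the 4 transcription factor members, Isg15 and Usp18 in each of the 20 libraries, with the group mean as a line; grey lines part the 3 tables, between which levels cannot be compared. TLI/ATS, EpoR+ and cKO libraries are red and stand left of their grey untreated, EpoR- and control libraries, and Isg15 is the one gene of the 6 whose libraries stand apart in the TLI/ATS, EpoR and lymph node cKO pairs alike with a call in each.

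Deletion of Epor was followed by 2 called members in lymph node cDC1s, both higher, out of 43 (4.65%), where 0.288% of 17362 genes tested were higher and 0.167% were lower. Trim25 stood at 75.8, 78.1 and 64.6 CPM in lymph node cKO cells, against 40.5, 32 and 46.9 CPM in lymph node controls (0.87 ± 0.14, adjusted p = 0.00696). Isg15 stood at 68.8, 69.2 and 67.9 CPM in lymph node cKO cells, against 43.2, 39.8 and 52.3 CPM in lymph node controls (0.61 ± 0.12, adjusted p = 0.0382). In both genes all 3 cKO libraries lay above all 3 control libraries, and the 2 proteins both act in ubiquitin and ubiquitin-like modification. Trim25 was called under each of 11 alternatives. Isg15 lost its call without any 1 of the lymph node cKO libraries, without control replicate 1 or 2 (0.53 to 0.61 in these 5 fits), and in a fit on the lymph node libraries alone. The median over the members was 0.15, against 0.00 over all genes, with 35 of 43 above 0, where 49.4% of all genes tested were.

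The factors upstream were close between the genotypes. Stat2 had 119.7, 107 and 122 CPM in lymph node cKO cells, against 95.5, 111 and 109 CPM in lymph node controls (0.15 ± 0.14). Irf9 had 74.7, 88.9 and 82.5 CPM in lymph node cKO cells, against 77.6, 64.3 and 95.3 CPM in lymph node controls (0.05 ± 0.13). Irf7 had 52.8, 47 and 66.9 CPM in lymph node cKO cells, against 49.4, 38.2 and 47.5 CPM in lymph node controls (0.30 ± 0.14). The libraries of the genotypes overlapped in all 3. Irf1 had 1110, 1113 and 1121 CPM in lymph node cKO cells, against 1137, 1000 and 1082 CPM in lymph node controls (0.05 ± 0.07), again overlapping, and it was the most abundant member per length in both groups. Rsad2 (0.54 ± 0.12), Ifitm3 (0.78 ± 0.20) and Oasl1 (0.41 ± 0.10) also had 3 cKO libraries above 3 controls and did not pass the threshold. They are named, after their values were seen, because DESeq2 called them. It called 5 members there, where it called 1.17% of all genes it tested. Rsad2 and Ifitm3 were also called by edgeR with no filter on low counts, where 4 members and 0.464% of all genes tested were called. Without lymph node control replicate 1 Rsad2 was called as well (0.66). Of 100 further interferon genes 1 was called, Cxcl9, a chemokine gene induced by interferon gamma (27.1 ± 4.13 CPM in lymph node cKO cells, against 17.1 ± 3.1 CPM in lymph node controls, 0.67 ± 0.13, adjusted p = 0.0311). The values were 0.11 for Ifnar1, 0.23 for Ifnar2, -0.09 for Ifngr1, 0.06 for Ifngr2 and -0.04 for Irf3. T cell markers summed to between 196.7 and 228.4 CPM in cKO cells, against 242.7 to 275.8 CPM in controls, and their part was not tested.

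In spleen 0 of 43 members were called between cKO and control cells with edgeR, where 0.49% of genes tested were higher and 0.121% were lower. At an unadjusted p under 0.05 there were 9 members, a count for which no share over all genes was computed. DESeq2 called 2 members, Gbp3 lower and Irgm1 higher, where it called 3.72% of all genes it tested. The median was -0.02. Isg15 had 71.9, 79 and 82 CPM in spleen cKO cells, against 74.4, 81.7 and 98 CPM in spleen controls (-0.13 ± 0.12). Trim25 had 71.7, 67 and 76.9 CPM in spleen cKO cells, against 83.8, 70.5 and 64.8 CPM in spleen controls (-0.02 ± 0.14). Both overlapped. Stat2 had 73.6, 78.1 and 85.8 CPM in spleen cKO cells, against 63, 105 and 87.7 CPM in spleen controls (-0.11 ± 0.14). Irf9 had 57, 56.2 and 55 CPM in spleen cKO cells, against 63.9, 56.1 and 53 CPM in spleen controls (-0.04 ± 0.13). Irf7 had 65, 84.3 and 70.8 CPM in spleen cKO cells, against 59.1, 66.5 and 59.1 CPM in spleen controls (0.25 ± 0.14). These 3 overlapped too. Irf1 had 990, 1052 and 1068 CPM in spleen cKO cells, against 1085, 1101 and 1192 CPM in spleen controls (-0.12 ± 0.07), with no overlap and no call. The member nearest the threshold, Gbp3, had 12.3, 11.9 and 11.4 CPM in spleen cKO cells, against 29, 17.8 and 19.3 CPM in spleen controls (-0.89 ± 0.21, adjusted p = 0.0668). It was called without spleen control replicate 3 (-0.95). Of the further interferon genes 1 was called, Ly6e, a GPI-anchored antiviral protein gene (592 ± 22.2 CPM in spleen cKO cells, against 457 ± 13.2 CPM in spleen controls, 0.37 ± 0.08), and the values were 0.15 for Ifnar1, 0.02 for Ifnar2, 0.65 for Ifngr1, 0.06 for Ifngr2 and -0.36 for Irf3.

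Whether the cKO effect differed between the tissues was tested directly, as lymph node minus spleen. No member passed with edgeR, where 0.317% of genes did in either direction. DESeq2 called 5 members, where it called 3.04% of all genes it tested. At an unadjusted p under 0.05 there were 10 members, and no share over all genes was computed for that count. The difference was 0.90 ± 0.20 for Trim25 (adjusted p = 0.0707) and 0.73 ± 0.17 for Isg15 (adjusted p = 0.0925). It was 0.25 ± 0.20 for Stat2, 0.09 ± 0.18 for Irf9, 0.05 ± 0.20 for Irf7 and 0.17 ± 0.09 for Irf1. Without lymph node control replicate 3 both Trim25 (1.02) and Isg15 (0.85) were called, and without spleen control replicate 3 Trim25 was (0.96). A call in lymph node and none in spleen therefore does not by itself show a tissue difference.

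**Figure D4:**
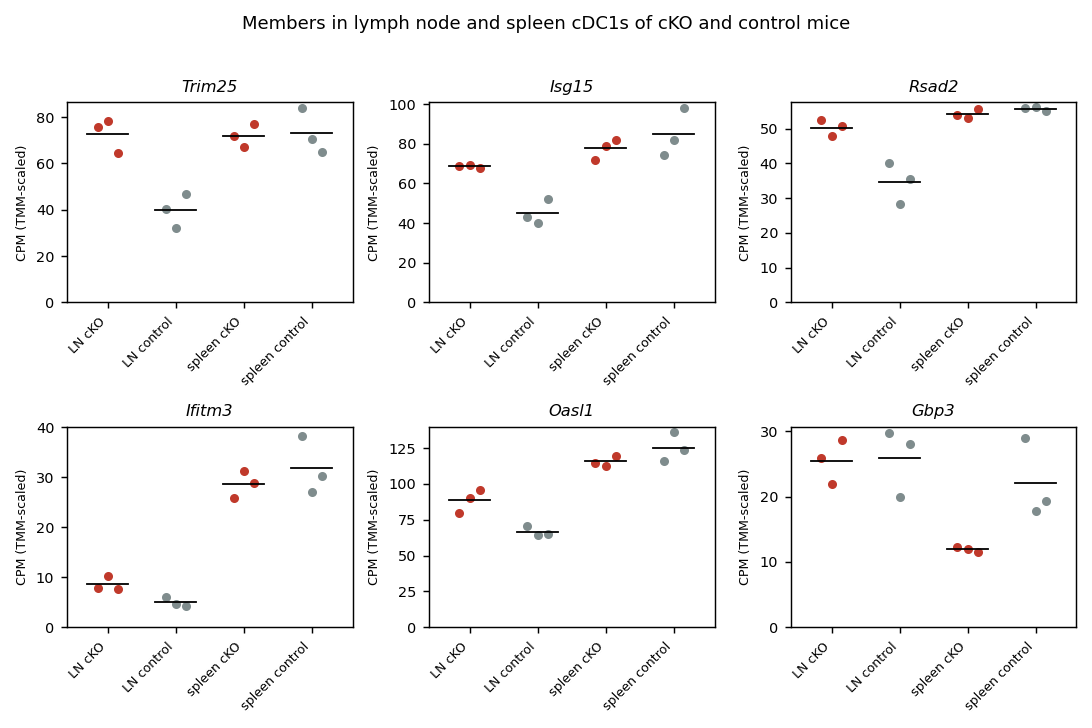
CPM in each lymph node and spleen library of cKO (red) and control (grey) mice, with the group mean as a line and y axes from 0, for the 2 members called in lymph node and 4 members named from alternative fits. For Trim25, Isg15, Rsad2, Ifitm3 and Oasl1 the 3 lymph node control libraries are the lowest of the 12, and for Gbp3 the spleen cKO libraries are.

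The 2 tissues differed in many of these genes, and they also differed in the sort, so tissue and gate cannot be told apart. Between lymph node and spleen controls 15 members were higher (34.9%), where 21% of genes tested were higher, and 14 were lower (32.6%), where 20.3% were lower. Between lymph node and spleen cKO cells 17 were higher (39.5%), where 14.1% of genes were higher, and 7 were lower (16.3%), where 15.3% were lower. These 2 comparisons share no library, but they come from 1 fit with a shared estimate of the spread. In both, 13 members were higher and 7 lower, and the share of all genes called alike in both was not computed. In cKO mice 12 of 17 higher and 6 of 7 lower members were called under each of 10 alternatives, and in controls 8 of 15 and 9 of 14. Leaving out at least 1 library ended the calls of Irf7, Oas1a and Rtp4 in both genotypes, of Ifi203, Oas3 and Gbp5 in cKO mice, and of Irf9, Ifih1, Oasl2, Mx1, Mx2, Parp14, Irgm1, Ifi35 and Ifi44 in controls. The median over the members was 0.08 in controls and 0.17 in cKO cells, near that of all genes (-0.01 and 0.00). Summed T cell markers ran from 196.7 to 275.8 CPM in lymph node libraries, against 62.02 to 79.4 CPM in spleen libraries, and summed cDC1 markers from 1799 to 1884 CPM, against 3579 to 4029 CPM. B cell markers summed to 7.83 to 13.4 CPM in lymph node, against 40.2 to 68.5 CPM in spleen, and macrophage markers to 120.7 to 141.6 CPM, against 220.9 to 291.6 CPM. Monocyte and neutrophil markers summed to 10.9 to 15.6 CPM in lymph node, against 18.7 to 34.1 CPM in spleen, and pDC markers to 108 to 142.2 CPM, against 119.1 to 142.2 CPM. Some markers of each list other than cDC1 were at 0 in some libraries. The part of these shifts was not tested.

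**Figure D5:**
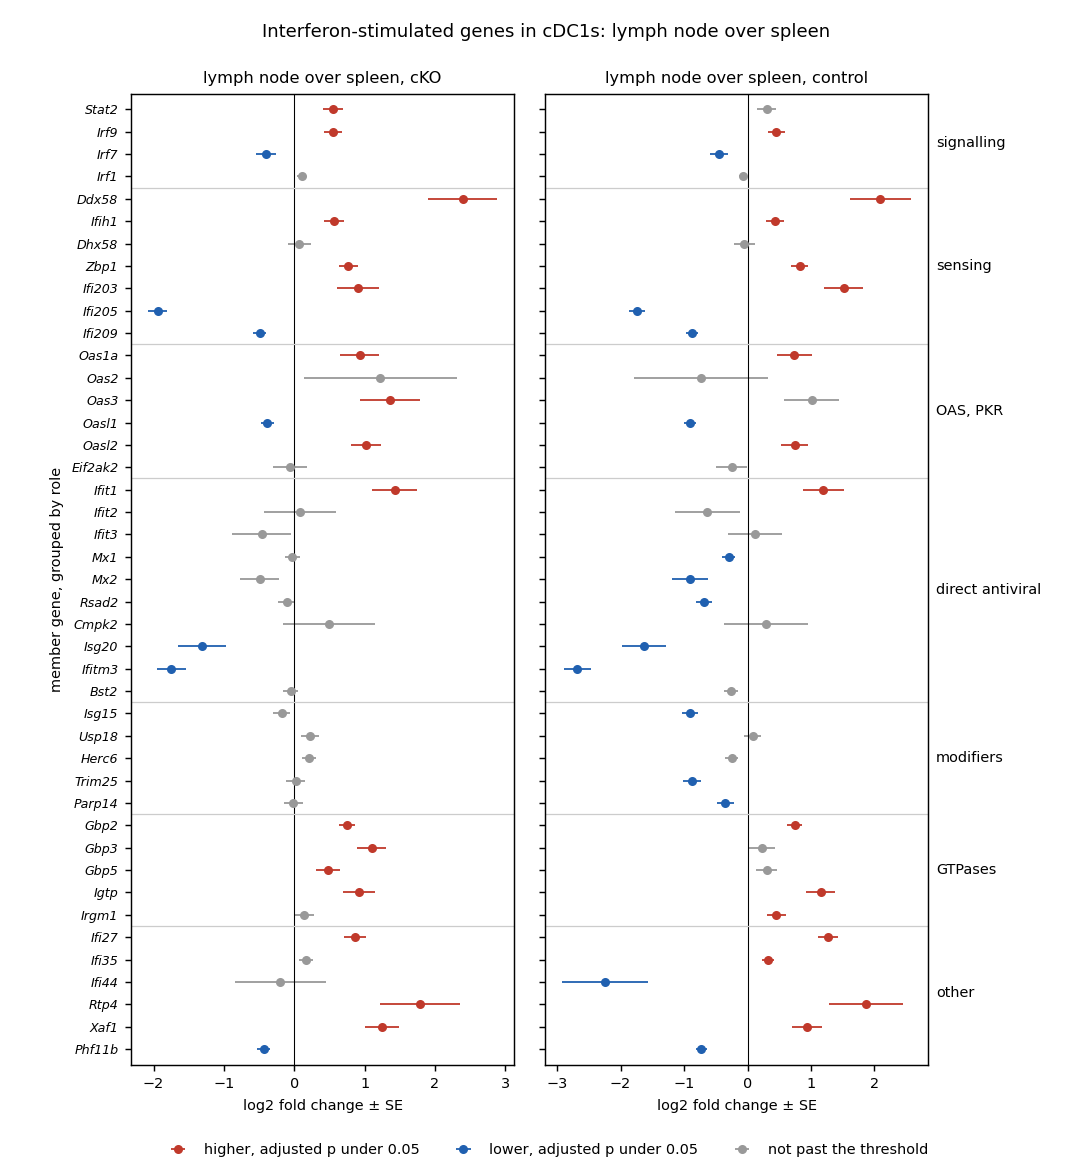
Log2 fold change ± SE of each of the 43 members in lymph node over spleen cells, for cKO mice on the left and control mice on the right, in the same order of roles. GTPases are above 0 in both genotypes, and the modifiers Isg15, Trim25 and Parp14 are below 0 with a call in controls and lie between -0.18 and 0.02 without one in cKO cells.

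Irf9 was higher in lymph node, with 74.7, 88.9 and 82.5 CPM in cKO and 77.6, 64.3 and 95.3 CPM in control lymph node cells, against 57, 56.2 and 55 CPM in cKO and 63.9, 56.1 and 53 CPM in control spleen cells (0.55 ± 0.13 in cKO and 0.45 ± 0.13 in controls). Stat2 was called in cKO cells (0.55 ± 0.14, adjusted p = 0.00896) and not in controls (0.30 ± 0.14, adjusted p = 0.11). Irf7 was lower in lymph node, at -0.40 ± 0.14 in cKO cells and -0.45 ± 0.15 in controls. Irf1 did not pass in either (0.10 and -0.07). Irf9 and Irf7 thus lay on opposite sides of 0 in both genotypes, and the library values of Stat2, Irf7 and Irf1 are those given above.

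Among sensors, Ddx58 had 10.5, 8.8 and 7.86 CPM in cKO and 8.01, 9.48 and 9.74 CPM in control lymph node cells, against 0.487, 2.49 and 2.23 CPM in cKO and 3.32, 1.36 and 1.65 CPM in control spleen cells (2.39 ± 0.49 in cKO and 2.09 ± 0.48 in controls). Ifi205 had 25.2, 21.8 and 30.1 CPM in cKO and 25.4, 21.4 and 20 CPM in control lymph node cells, against 104, 100.4 and 91.6 CPM in cKO and 69.5, 78.8 and 74.8 CPM in control spleen cells (-1.94 ± 0.13 and -1.74 ± 0.13). Ifi203 had 13, 9.89 and 8.31 CPM in cKO and 7.76, 9.48 and 12.2 CPM in control lymph node cells, against 6.65, 6.35 and 3.66 CPM in cKO and 3.9, 3.65 and 2.76 CPM in control spleen cells (0.90 ± 0.30 and 1.51 ± 0.31). Related PYHIN genes again stood on opposite sides, Ifi203 high and Ifi205 low in lymph node. Ifih1 and Zbp1 were higher in both genotypes, Ifi209 was lower in both, and Dhx58 was not called in either.

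Of the OAS group, Oas1a had 8.1, 9.39 and 9.75 CPM in cKO and 7.38, 9.82 and 9.81 CPM in control lymph node cells, against 6.62, 3.53 and 4.1 CPM in cKO and 6.01, 5.42 and 4.79 CPM in control spleen cells (0.93 ± 0.28 and 0.73 ± 0.28). Oasl2 had 23.4, 18.4 and 19.9 CPM in cKO and 17.6, 12.9 and 14.2 CPM in control lymph node cells, against 11.3, 8.02 and 11 CPM in cKO and 8.22, 10.6 and 7.82 CPM in control spleen cells (1.02 ± 0.21 and 0.74 ± 0.21). Oas3 had 11.3, 10.4 and 12.5 CPM in cKO and 6.46, 4.72 and 9.21 CPM in control lymph node cells, against 4.75, 3.53 and 5.03 CPM in cKO and 1.12, 5.46 and 3.61 CPM in control spleen cells (1.36 ± 0.42, called, and 1.01 ± 0.43, not called). Lymph node libraries were the higher ones in all 3 except where Oas3 overlapped in controls. Oasl1 was lower in both genotypes (-0.38 and -0.91), and Oas2 and Eif2ak2 were not called in either.

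Of the 10 direct antiviral members 1 was called higher and 2 lower in cKO mice (median -0.08), and 1 higher and 5 lower in controls (median -0.47). Ifitm3 had 7.73, 10.3 and 7.57 CPM in cKO and 6.06, 4.63 and 4.23 CPM in control lymph node cells, against 25.9, 31.2 and 28.8 CPM in cKO and 38.3, 27.1 and 30.3 CPM in control spleen cells (-1.75 ± 0.20 and -2.68 ± 0.21). Isg20 had 3.43, 5.21 and 3.71 CPM in cKO and 3.69, 4.18 and 1.79 CPM in control lymph node cells, against 9.38, 11.2 and 10 CPM in cKO and 12.9, 6.5 and 10.6 CPM in control spleen cells (-1.31 ± 0.34 and -1.63 ± 0.35). Both were lower in lymph node in each genotype. Ifit1 was called higher in both genotypes, with 19.2, 13.3 and 17.1 CPM in cKO and 18.5, 16.8 and 19.7 CPM in control lymph node cells, against 6.89, 5.72 and 5.88 CPM in cKO and 11, 9.67 and 3.4 CPM in control spleen cells (1.42 ± 0.32 and 1.19 ± 0.32). Mx1 (-0.30), Mx2 (-0.90) and Rsad2 (-0.68) were called lower in controls and not in cKO cells (-0.03, -0.49 and -0.11). Ifit2, Ifit3, Cmpk2 and Bst2 were not called in either genotype.

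Isg15 was lower in lymph node than in spleen in control mice (-0.91 ± 0.12, adjusted p = 2.62e-05), and in cKO mice the value was -0.18 ± 0.12 (adjusted p = 0.306). Trim25 had -0.88 ± 0.14 in controls (adjusted p = 0.000134) and 0.02 ± 0.14 in cKO mice (adjusted p = 0.936). These values rest on the same 4 groups of libraries as the cKO comparisons above and are no further evidence, and the test of the difference between them is the one given there. Parp14 was called lower in controls alone (-0.35, against -0.01 in cKO mice), and Usp18 and Herc6 were called in neither.

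The GTPases were higher in lymph node. Igtp had 16.6, 18.4 and 21.6 CPM in cKO and 24.4, 18.4 and 21.4 CPM in control lymph node cells, against 11, 10.7 and 8.27 CPM in cKO and 8.79, 7.11 and 12.9 CPM in control spleen cells (0.91 ± 0.23 and 1.15 ± 0.23). Gbp3 had 25.9, 22 and 28.7 CPM in cKO and 29.7, 19.9 and 28.1 CPM in control lymph node cells, against the spleen values given above (1.10 ± 0.21, called, and 0.23 ± 0.20, not called). Gbp2 was called in both genotypes, Gbp5 in cKO mice and Irgm1 in controls. All 5 lay above 0 in both genotypes.

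Of the remaining members, Rtp4 had 2.98, 2.77 and 3.22 CPM in cKO and 1.88, 3.04 and 3.43 CPM in control lymph node cells, against 0.56, 0.765 and 1.27 CPM in cKO and 0.242, 1.28 and 0.775 CPM in control spleen cells (1.79 ± 0.57 and 1.87 ± 0.58). Xaf1 had 21.5, 33.4 and 30.8 CPM in cKO and 23.4, 18.8 and 20.6 CPM in control lymph node cells, against 12.2, 14.4 and 9.6 CPM in cKO and 14.3, 7.43 and 11 CPM in control spleen cells (1.24 ± 0.24 and 0.94 ± 0.24). Ifi27 had 32.7, 34.3 and 35 CPM in cKO and 35.2, 36.3 and 34.6 CPM in control lymph node cells, against 20.2, 17.3 and 18.4 CPM in cKO and 11.3, 16.6 and 16.2 CPM in control spleen cells (0.87 ± 0.15 and 1.27 ± 0.16). These 3 were higher in lymph node in both genotypes. Ifi44 was lower in control lymph node (1.14, 1.05 and 0.652 CPM, against 10.3, 1.52 and 1.58 CPM in control spleen, -2.24 ± 0.68), where spleen control replicate 1 stood far above the other 2, and the call was lost without that replicate (-0.68) and without lymph node control replicate 3 (-2.02). Phf11b was lower in both genotypes, and Ifi35 was higher in controls.

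Of 100 further interferon genes 31 were higher and 18 lower in lymph node in cKO mice, and 40 were higher and 26 lower in controls. Over all genes tested the shares were 14.1% higher and 15.3% lower in cKO mice and 21% and 20.3% in controls. Ifi208 had 95, 115 and 138 counts in cKO and 188, 222 and 114 counts in control lymph node cells, against 8, 2 and 0 counts in cKO and 0, 0 and 0 counts in control spleen cells, and was called in both genotypes. Ifi206 had 103, 110 and 105 counts in cKO and 107, 137 and 247 counts in control lymph node cells, against 9, 2 and 16 and 0, 0 and 3 counts in cKO and control spleen cells. Oas1c had 42, 55 and 35 counts in control lymph node cells, against 1, 0 and 0 counts in control spleen cells. With so few counts in spleen no fold is given for these 3. The chemokine genes Cxcl9 (-2.63 in cKO and -3.30 in controls) and Cxcl10 (-2.52 and -2.80) and the sensor gene Tlr3 (-2.42 and -2.86) were lower in lymph node in both genotypes. Gbp7 (3.61) was higher and Ifitm1 (-2.52) lower in controls, and Slfn1 (2.71) and Slfn8 (1.96) were higher and Iigp1 (-2.15) lower in cKO mice. Ifngr1 was lower in both (-1.47 and -0.73), Ifnar2 (-0.48) was lower in controls, and Irf3 was higher in cKO mice (0.34). Ifnar2 was at -0.27 in cKO mice, Irf3 at 0.02 in controls, Ifnar1 at -0.19 and -0.15, and Ifngr2 at -0.05 and -0.06 in cKO and control mice, none of them called.

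Levels per length, as CPM per kilobase of exon within each table, put few members at the top in any group. In EpoR+ cells Ifitm3 led with 194.8, before Bst2 with 106.9 and Phf11b with 78.7, and in EpoR- cells Phf11b led with 136.4, before Ifi205 with 117.7 and Ifitm3 with 89.6. After TLI/ATS Phf11b (233.8), Ifi205 (231.2) and Ifitm3 (211.9) led, and in untreated cells Bst2 (284.2), Ifitm3 (191.9) and Phf11b (156.9). In the third table Irf1 and Phf11b took the first 2 places in all 4 groups. The median member was at 16.1 in EpoR+ cells, against 5.93 in EpoR- cells, and at 7.69 after TLI/ATS, against 4.74 in untreated cells. Oas2 was the least abundant member in EpoR- cells (0.377), after TLI/ATS (0.157) and in untreated cells (0.16). The 6 members Irf1, Dhx58, Oas2, Eif2ak2, Usp18 and Herc6 were called in none of the 7 comparisons in the main edgeR fits, though some were under alternatives.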

How the data were processed

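RNA-seq of 20 libraries was analysed from 3 tables of raw read counts per gene, deposited by the authors and made with featureCounts (versions 2.0.3 and 2.0.8, per the file headers). The submitters' processing notes also name HISAT2, SAMtools and StringTie and the builds GRCm38 and mm10. Reads were counted without strand, and in the EpoR and cKO tables a read pair can add 2 counts, per the file headers, so counts there are not independent molecules. Ifi35, Rtp4, Herc6 and Igtp share exon bases with other annotated genes, between 8.01% and 16.8%, and near-identical paralogs exist for the Ifit3, Oas1a, Gbp, Phf11 and PYHIN members, so their counts are less certain.

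Each table was fitted separately with edgeR 4.0.16 in R 4.3.3: filterByExpr (minimum count 10, minimum total 15), TMM scaling, the robust quasi-likelihood test, and Benjamini-Hochberg adjustment over all genes tested. The cKO table was fitted as 4 groups that share 1 estimate of the spread. Alternatives were DESeq2 1.42.0, another scaling, no filter, a replicate block, each library left out, and a fit on each tissue alone. Depth sets a floor of 3 counts at 0.03837 to 0.1204 CPM, which covers counting error only. Values per library were given for Stat2, Irf9, Irf7, Irf1 and Isg15 in each comparison and for up to 12 called members with the largest difference. Further interferon genes were named where called, up to 8 per comparison, and the receptor genes Ifnar1, Ifnar2, Ifngr1 and Ifngr2 with Irf3 in every comparison. A further signalling gene of that rule is not reported here. The members and gene lists were chosen with earlier results of these data known.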

Additional observations from a re-analysis of the deposited data

How the results depend on the processing

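No member's call changed sign under any alternative run. After TLI/ATS 2 members were called, against 1 with no filter, 3 with RLE scaling, 10 with DESeq2 and 7 with a replicate block. The shares of all genes called were 2.7%, against 1.47%, 2.81%, 7.02% and 7.33% in the same order. For EpoR+ cells 25 were called, against 26 with no filter, 25 with RLE, 28 with DESeq2 and 32 with the block. There the shares of all genes were 16.7%, against 13.3%, 16.5%, 19.45% and 34.2%. Counts with 1 library left out are not given for the first 2 tables, since such a fit leaves 1 group with a lone library. The block added calls of Irf1, Dhx58, Oas2, Herc6 and Irgm1 (higher) and of Mx1 and Ifi35 (lower). In spleen cKO cells 0 were called, against 1 with no filter, 2 with DESeq2 and 0 with the block, and 0 to 1 with 1 library left out. The shares of all genes in these fits were 0.611%, 1.19%, 3.72% and 0.23%, and 0.167% to 2.05%. In lymph node cKO cells 2 were called, against 4 with no filter, 5 with DESeq2, 2 with the block and 1 in the lymph node libraries alone, and 1 to 2 with 1 library left out. Over all genes these fits called 0.455%, 0.464%, 1.17%, 0.357% and 0.281%, and 0.277% to 0.389%. For the difference of the cKO effect 0 were called, against 2 with no filter, 5 with DESeq2 and 0 with the block, and 0 to 2 with 1 library left out. The shares of all genes were 0.317%, 0.994%, 3.04% and 0.196%, and 0.158% to 1.2%. Between lymph node and spleen 24 were called in cKO mice (22 with the block, 19 to 21 with 1 library left out) and 29 in controls (26 with the block, 23 to 27). There the shares of all genes were 29.4% (27.3%, 20.8% to 24.55%) and 41.3% (38.7%, 32% to 37.9%). The cause of these shifts was not tested.

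Over all genes, 465 were called after TLI/ATS, against 1324 with DESeq2 (436 higher and 888 lower, where edgeR had 86 and 379) and 1264 with the block. For EpoR+ cells 2606 were called, against 5347 with the block. In spleen cKO cells 106 were called, against 436 with no filter, 647 with DESeq2 (427 higher and 220 lower, where edgeR had 85 and 21), 40 with the block and 31 to 379 with 1 library left out. In lymph node cKO cells 79 were called, against 170 with no filter, 204 with DESeq2 and 44 in the lymph node libraries alone. For the difference 55 were called, against 364, 507 and 34 with no filter, DESeq2 and the block. Same-numbered libraries did not deviate together in the first table (r = -0.025) or the third, and did in the second (r = 0.42), where the labels do not pair them, so the block is given here alone. Groups of 2 libraries limit the first 2 tables.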
